A study of Arabidopsis thaliana with 6 samples.

Results

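The glyoxylate cycle and the first step of gluconeogenesis were followed in Arabidopsis thaliana seedlings through 7 genes, fixed by locus code and all found among the 33341 genes of the deposited count tables. They are ICL (AT3G21720), MLS (AT5G03860), CSY2 (AT3G58750), CSY3 (AT2G42790), PMDH1 (AT2G22780), PMDH2 (AT5G09660) and PCK1 (AT4G37870). All 7 passed the filter on low counts, which left 18115 genes to test. Total RNA of whole seedlings, aged 4 days, was sequenced in 6 libraries, 3 of the wild type, whose titles begin with Col, and 3 of the mutant pp7l-1. Every seedling of both genotypes had grown on agar with 1% sucrose at 22 °C, in long days under white light of 100 µmol photons per square metre and second. The question the series names is the role in chloroplast development of PP7L (SERINE/THREONINE-PROTEIN PHOSPHATASE7-LIKE), and the lesion of pp7l-1 is not described in the sources used here.

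In germinating oilseeds such as Arabidopsis, stored oil is broken down to acetyl-CoA in the peroxisome, and the glyoxylate cycle joins acetyl units into organic acids without releasing them as carbon dioxide. Citrate synthase (CSY2 and CSY3 in the peroxisome) opens the cycle, ICL splits isocitrate into succinate and glyoxylate, and MLS joins glyoxylate to a further acetyl unit to give malate. Peroxisomal malate dehydrogenase (PMDH1, PMDH2) interconverts malate and oxaloacetate, and PCK1 in the cytosol turns oxaloacetate into phosphoenolpyruvate, from which sugar is made. Transcripts of ICL and MLS are textbook marks of the first days after germination and decline once the seedling feeds itself by photosynthesis.

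The libraries held between 11269557 and 16744328 counts, of which plastid transcripts took between 67.9% and 72.5% in the wild type, against 55.1% to 63.2% in those labelled pp7l-1. Levels are given as CPM, that is, counts scaled to libraries of 1e+06 reads after correction by TMM (the trimmed mean of log ratios), so that a change is relative to the bulk of genes. PP7L itself had between 21 and 24 counts in the wild type, against 247 to 315 in the libraries labelled pp7l-1 (log2 fold change 3.52 ± 0.22, standard error). The mutated gene was thus read more, not less, under the mutant label, and every direction given here rests on the labels. In replicate 1 labelled pp7l-1, 7.56% of counts lay in 4 nuclear ribosomal RNA genes, against at most 0.0151% elsewhere. The labels do not say that replicates were separate cultures, so p-values measure the spread between these libraries, which may be technical. Shoot markers were read in every library, with summed levels of 9505 to 12911 CPM in the wild type, against 12581 to 16006 CPM in the libraries labelled pp7l-1, and so were root markers, with 625 to 728 CPM and 943 to 1201 CPM. Of 5 shoot markers, 2 were higher, RCA (log2 fold change 1.00 ± 0.28) and PSAD1 (0.95 ± 0.24), and 0 lower. Both missed the threshold without wild-type replicate 1 or replicate 1 labelled pp7l-1, RCA also without wild-type replicate 3. Most of the summed shoot level was RBCS1A, with means of 4202 and 4925 CPM, and LHCB1.3, with 6041 and 7624 CPM. Neither of these passed (edgeR adjusted p = 0.641 and 0.512), and their groups overlapped. Of 5 root markers, 3 (TIP2;3, PRP3 and CASP1) were lower and 2 (PYK10 and SHR) higher, although PYK10 missed the threshold without any 1 library other than replicate 2 labelled pp7l-1. PYK10 made up most of the summed root level, with means of 616 CPM in the wild type and 1041 CPM in libraries labelled pp7l-1. That sum thus follows 1 gene and not the 5 root markers alike. The part of these markers in the results below was not tested. In whole seedlings a change in the number of cells of a type cannot be told apart from a change in RNA per cell.

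Of the 7 genes, 4 were higher in the libraries labelled pp7l-1 and 0 were lower, in edgeR's quasi-likelihood test with Benjamini-Hochberg adjustment over all tested genes (10.6% of all tested genes were called higher, 11.3% lower and 21.9% in either direction). The 4 were ICL, MLS, PCK1 and CSY3, with folds of 39.4, 17.6, 2.10 and 1.60. PMDH1 did not pass (adjusted p = 0.0563), nor did CSY2 and PMDH2. For 5 of the 7 genes, PMDH1 included, the lowest library labelled pp7l-1 lay above the highest wild-type library, which was so for 18.7% of tested genes. The median log2 fold change was 0.68 over the 7 genes and -0.01 over all tested genes. Both the 7 genes and the lists below were chosen with earlier results of these data known. The shares over all tested genes are thus given as background and are no test of a set.

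**Figure D1:**
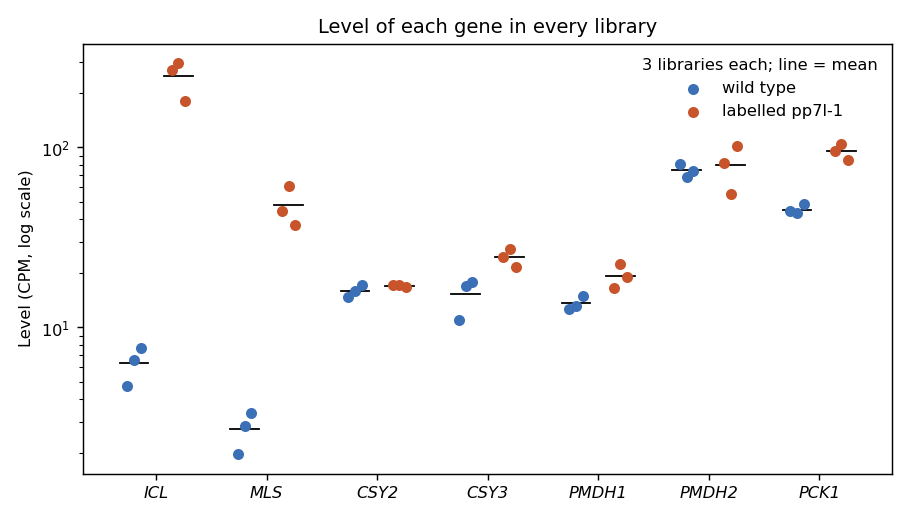
Level of each of the 7 genes in CPM on a log axis, with 1 point per library, blue for the wild type and orange for the libraries labelled pp7l-1, and a line at the mean of 3. ICL and MLS lie far apart between the genotypes, PCK1, CSY3 and PMDH1 lie apart by less, and CSY2 and PMDH2 overlap.

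ICL (chromosome 3, 7652487 to 7656053 of TAIR10.1, minus strand, 5 exons) encodes isocitrate lyase, which with malate synthase makes up the pair of enzymes that define the cycle. It had 67, 102 and 83 counts in the wild type, against 3291, 4231 and 3273 in the libraries labelled pp7l-1. As levels these were, in the order of replicates 1 to 3, 4.74, 6.56 and 7.70 CPM against 269.6, 294 and 182 CPM. The lowest library labelled pp7l-1 thus stood far above the highest of the wild type, and the spread within a genotype was small beside the gap. The mean went from 6.33 ± 1.49 CPM (SD, n = 3) to 249 ± 59.0 CPM, a log2 fold change of 5.30 ± 0.29 (edgeR adjusted p = 3.46e-08), or 39.4-fold with a 95% interval of 25.8 to 60.03. By log2 fold change ICL ranked 4 of the 18115 tested genes. Per kilobase of exon its level ranked 7844 of 17952 genes in the wild type. In libraries labelled pp7l-1 it ranked 192.

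MLS (chromosome 5, 1032099 to 1034973, minus strand, 5 exons) encodes malate synthase. It had 28, 44 and 36 counts in the wild type, against 543, 881 and 669 in libraries labelled pp7l-1. Its levels were 1.98, 2.83 and 3.34 CPM against 44.5, 61.3 and 37.2 CPM, again with no overlap. The mean went from 2.72 ± 0.687 CPM to 47.7 ± 12.4 CPM, a log2 fold change of 4.14 ± 0.26 (edgeR adjusted p = 1.39e-07), or 17.6-fold with a 95% interval of 12.0 to 25.9. MLS ranked 14 by log2 fold change. Its rank per kilobase went from 12457 to 1046.

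The 300 bases before the annotated start of ICL and of MLS are shown because these genes changed most and in the same direction. They come from the RefSeq genome and annotation of TAIR10.1 and read 5′ to 3′ towards the gene, ICL from chr3:7656054-7656353 and MLS from chr5:1034974-1035273, both on the minus strand.
ICL: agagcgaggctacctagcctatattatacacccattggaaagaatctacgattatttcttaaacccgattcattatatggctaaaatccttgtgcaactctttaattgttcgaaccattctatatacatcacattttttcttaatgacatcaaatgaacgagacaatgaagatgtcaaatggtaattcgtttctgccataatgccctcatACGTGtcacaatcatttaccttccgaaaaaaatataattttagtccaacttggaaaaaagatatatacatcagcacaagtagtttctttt
MLS: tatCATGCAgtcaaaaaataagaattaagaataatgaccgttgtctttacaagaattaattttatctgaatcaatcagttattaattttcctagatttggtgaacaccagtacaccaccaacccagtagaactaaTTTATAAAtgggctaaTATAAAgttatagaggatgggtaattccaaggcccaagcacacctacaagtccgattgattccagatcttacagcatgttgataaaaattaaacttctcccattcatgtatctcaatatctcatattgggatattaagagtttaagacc
Capitals mark matches on either strand to 6 motifs, the G-box CACGTG, the core ACGTG of the abscisic acid response element, which the G-box contains, the RY element CATGCA of seed genes, the I-box GATAAG, the sugar response element TATCCA and the TATA box TATAAA. ICL held 1 match to ACGTG, 90 bases before the gene start, and 0 to the other motifs. MLS held 3 to TATAAA, of which 2 overlapped, and 1 to CATGCA, the latter 297 bases before the start. Of 27443 windows of the same length before nuclear protein-coding genes, 25.6% held ACGTG, 52.9% TATAAA and 10.3% CATGCA. ICL and MLS shared 0 of the motifs in these windows. A match is a description of letters and not of a bound site.

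Both enzymes rose, and the ratio of MLS to ICL was lower in every library labelled pp7l-1 than in any of the wild type. This ratio, taken within each library from counts per kilobase of exon, was 0.455, 0.468 and 0.471 in the wild type, against 0.178, 0.224 and 0.220 in libraries labelled pp7l-1. The wild-type libraries lay close together and the groups did not overlap. On the log2 scale the ratio went from -1.11 ± 0.03 to -2.28 ± 0.19 (SD, n = 3), a difference of -1.17 with an exact two-sided permutation p of 0.1 (adjusted p = 0.133 over the 4 ratios compared). That is the smallest p that 3 libraries against 3 can give. The difference restates the gap between the log2 fold changes of MLS (4.14) and ICL (5.30), and is no separate finding. A ratio within a library does not depend on how libraries are scaled.

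**Figure D2:**
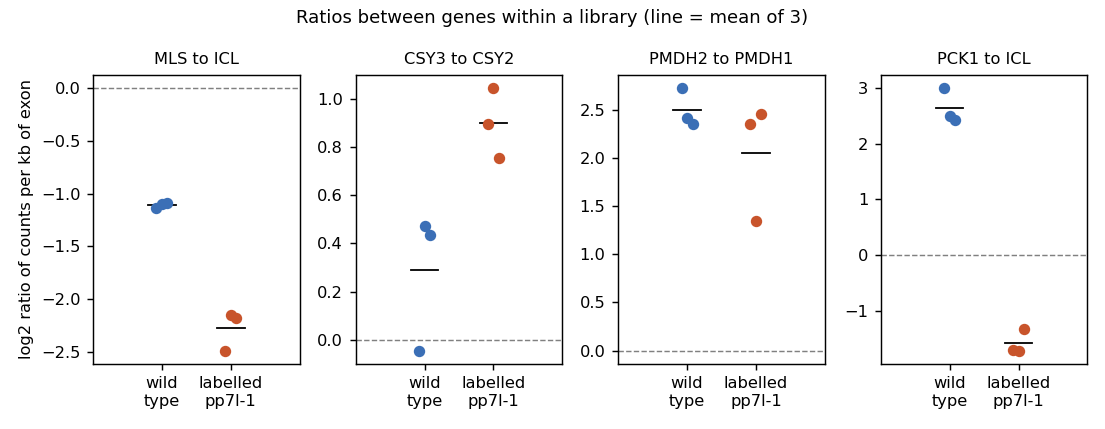
Log2 ratio between counts per kilobase of exon of 2 genes within each library, with 1 point per library and a line at the mean of 3. MLS to ICL and PCK1 to ICL are lower and CSY3 to CSY2 is higher in all 3 libraries labelled pp7l-1, while PMDH2 to PMDH1 overlaps.

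Of the peroxisomal citrate synthases, CSY3 passed the test and CSY2 did not. CSY3 (chromosome 2, 17802841 to 17806073, minus strand, 13 exons) had 156, 264 and 192 counts in the wild type, against 300, 392 and 388 in the libraries labelled pp7l-1, or 11.04, 17.0 and 17.8 CPM against 24.6, 27.3 and 21.6 CPM. The groups did not overlap, but wild-type replicate 1 lay well below the other two. The log2 fold change was 0.68 ± 0.21 (edgeR adjusted p = 0.0276), or 1.60-fold with a 95% interval of 1.18 to 2.17. The call was lost without wild-type replicate 1 (log2 fold change 0.49, adjusted p = 0.130), without replicate 1 labelled pp7l-1 (0.68, adjusted p = 0.0726) and without replicate 2 labelled pp7l-1 (0.62, adjusted p = 0.0533).

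CSY2 (chromosome 3, 21724306 to 21728137, minus strand, 12 exons) had 210, 248 and 185 counts in the wild type, against 210, 248 and 300 in libraries labelled pp7l-1. Its levels were 14.9, 16.0 and 17.2 CPM against 17.2, 17.3 and 16.7 CPM, which overlap. The log2 fold change was 0.09 ± 0.17 (edgeR adjusted p = 0.742), and its 95% interval ran from 0.829-fold to 1.37-fold. The ratio of CSY3 to CSY2 was 0.970, 1.39 and 1.35 in the wild type, against 1.86, 2.06 and 1.69 in the libraries labelled pp7l-1, with no overlap between the groups. Its log2 value went from 0.29 ± 0.29 to 0.90 ± 0.14, a difference of 0.61 (exact two-sided permutation p = 0.1, adjusted p = 0.133). This difference, too, restates the log2 fold changes of CSY3 (0.68) and CSY2 (0.09). The coding sequences of CSY2 and CSY3 were 84.3% identical, with a longest identical run of 41 bases, so reads that lie wholly within such a run cannot be told apart. CSY2 was 88.1% identical to its neighbour CSY1 (longest run 63 bases), which had 3 counts in all in the wild type, against 0 in the libraries labelled pp7l-1. Of the exon bases of CSY3, 2.47% lay in a counted gene on the other strand, and for the other 6 genes none did.

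The 300 bases before CSY3 (chr2:17806074-17806373, minus strand, TAIR10.1), with capitals as above, are shown since they held the most motif matches of the 7 windows.
CSY3: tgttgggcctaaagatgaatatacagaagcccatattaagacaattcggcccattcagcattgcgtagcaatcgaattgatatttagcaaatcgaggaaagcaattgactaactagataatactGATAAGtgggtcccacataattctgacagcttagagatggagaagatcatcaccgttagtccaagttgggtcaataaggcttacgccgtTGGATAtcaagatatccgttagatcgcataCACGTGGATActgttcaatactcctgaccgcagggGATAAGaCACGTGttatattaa
They held 2 G-boxes, 57 and 15 bases before the gene start, where 7.09% of all windows held at least 1. They also held 2 I-boxes and 2 sugar response elements, found in 14.5% and 16.2% of all windows, and 0 TATA boxes. The window of CSY2 held 1 TATA box and 0 of the other motifs.

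Neither malate dehydrogenase gene passed the test. PMDH1 (chromosome 2, 9689295 to 9692154, minus strand, 9 exons) had 180, 205 and 161 counts in the wild type, against 203, 322 and 345 in the libraries labelled pp7l-1, or 12.7, 13.2 and 14.9 CPM against 16.6, 22.4 and 19.2 CPM. The groups lay apart by little, with a log2 fold change of 0.51 ± 0.18 (edgeR adjusted p = 0.0563) and a 95% interval of 1.09-fold to 1.87-fold before adjustment. With upper-quartile scaling, with nuclear genes alone and with library size alone the adjusted p was 0.0400, 0.0441 and 0.00475.

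PMDH2 (chromosome 5, 2993411 to 2995784, minus strand, 8 exons), the more abundant isoform, had 1151, 1059 and 798 counts in the wild type, against 1000, 793 and 1834 in libraries labelled pp7l-1. Its levels were 81.4, 68.1 and 74.04 CPM against 81.9, 55.2 and 102 CPM. The wild type lay wholly inside the range of the libraries labelled pp7l-1, where replicate 2 was lowest and replicate 3 highest. The log2 fold change was 0.10 ± 0.23 (edgeR adjusted p = 0.800), with a 95% interval of 0.767-fold to 1.49-fold. Its sign turned without replicate 3 labelled pp7l-1 (-0.10, adjusted p = 0.811). The ratio of PMDH2 to PMDH1 was between 5.13 and 6.62 in the wild type, against 5.10, 2.55 and 5.51 in the libraries labelled pp7l-1 (difference of the log2 ratio -0.45, exact two-sided permutation p = 0.4, adjusted p = 0.4). PMDH1 and PMDH2 were 76.2% identical in coding sequence, with a longest identical run of 26 bases.

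PCK1 (chromosome 4, 17802690 to 17806705, minus strand, 13 exons), for phosphoenolpyruvate carboxykinase, had 626, 670 and 520 counts in the wild type, against 1172, 1501 and 1526 in libraries labelled pp7l-1. Its levels were 44.3, 43.1 and 48.2 CPM against 96.01, 104 and 84.9 CPM, with narrow and separate groups. The log2 fold change was 1.07 ± 0.19 (edgeR adjusted p = 0.000985), or 2.10-fold with a 95% interval of 1.59 to 2.78. Relative to ICL, PCK1 was lower under the mutant label. The ratio of PCK1 to ICL was between 5.34 and 7.95 in the wild type, against 0.304 to 0.400 in the libraries labelled pp7l-1. On the log2 scale it went from 2.63 ± 0.31 to -1.58 ± 0.23, a difference of -4.22 (exact two-sided permutation p = 0.1, adjusted p = 0.133). Since ICL rose far more than PCK1, this difference restates their fold changes, and its p adds nothing to them.

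The window before PCK1 (chr4:17806706-17807005, minus strand, TAIR10.1) is shown because PCK1 had the third largest change of the 7 genes.
PCK1: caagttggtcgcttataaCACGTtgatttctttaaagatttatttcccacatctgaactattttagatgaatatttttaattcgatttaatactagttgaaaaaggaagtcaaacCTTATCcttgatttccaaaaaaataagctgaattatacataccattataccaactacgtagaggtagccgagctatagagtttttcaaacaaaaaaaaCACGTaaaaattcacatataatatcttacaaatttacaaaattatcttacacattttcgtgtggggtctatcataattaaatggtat
It held 2 matches to ACGTG, 282 and 87 bases before the gene start, and 1 to the I-box, with 0 to the other motifs.

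**Figure D3:**
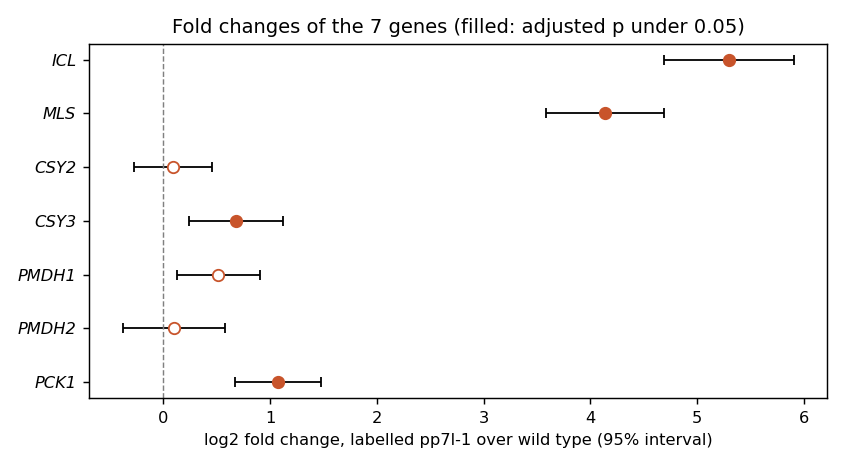
Log2 fold change of each gene, libraries labelled pp7l-1 over wild type, with its 95% interval. Filled points passed the adjusted threshold of 0.05 (ICL 5.30, MLS 4.14, PCK1 1.07, CSY3 0.68), and open points did not (PMDH1 0.51, PMDH2 0.10, CSY2 0.09).

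Per kilobase of exon, the order of the levels differed between the genotypes. In the wild type it ran from PMDH2 at 38.7 ± 3.46 CPM per kilobase (SD, n = 3) through PCK1 at 17.5 ± 1.04, CSY3 at 8.03 ± 1.94, PMDH1 at 6.82 ± 0.583 and CSY2 at 6.44 ± 0.466 to ICL at 2.86 ± 0.675 and MLS at 1.32 ± 0.334. The ranges of CSY3 and PMDH1, and of PMDH1 and CSY2, overlapped, so that their order is not resolved. In the libraries labelled pp7l-1 ICL came first at 112 ± 26.7 CPM per kilobase. It was followed by PMDH2 at 41.4 ± 12.2 and PCK1 at 36.8 ± 3.79, whose ranges overlapped, then by MLS at 23.2 ± 6.01, CSY3 at 12.9 ± 1.50, PMDH1 at 9.72 ± 1.45 and CSY2 at 6.87 ± 0.126. PMDH2, at 28.7 to 53.0 CPM per kilobase, also overlapped MLS, at 18.1 to 29.8, so that the place of PMDH2 among these genes is not resolved. ICL made up 3.49 ± 0.740% of the summed level of the 7 genes in the wild type, against 45.7 ± 6.37% in the libraries labelled pp7l-1. PMDH2 went from 47.4 ± 4.32% to 17.5 ± 6.99% of that sum, as a share of a larger total.

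Isoforms of the same enzyme families beyond the 7 genes did not move as one. Of 11 listed, 9 could be tested, of which 2 were higher, 1 lower and 6 did not pass, and the median log2 fold change was 0.45. Over all tested genes, 10.6% were called higher and 11.3% lower. PCK2 (AT5G65690), the second carboxykinase gene, fell from 4.12 ± 0.640 to 1.08 ± 0.427 CPM (log2 fold change -1.97 ± 0.31, edgeR adjusted p = 0.000399), opposite in sign to PCK1. The chloroplast NADP-dependent malate dehydrogenase (NADP-MDH, AT5G58330) rose from 22.8 ± 3.32 to 64.3 ± 8.13 CPM (1.49 ± 0.20) and the cytosolic cMDH2 (AT5G43330) from 8.02 ± 0.517 to 16.6 ± 3.12 CPM (1.04 ± 0.19). The mitochondrial citrate synthase CSY4 was at 40.2 ± 4.42 and 41.9 ± 0.603 CPM and did not pass (edgeR adjusted p = 0.849). Scaled on library size alone, 6 were higher, and 4 were higher without replicate 3 labelled pp7l-1.

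Among the enzymes and carriers that feed or drain the cycle, 4 of 12 tested genes were higher, 1 lower and 7 did not pass, and the median log2 fold change was 0.36. Beside this, 10.6% of all tested genes were called higher and 11.3% lower. ACO3 (AT2G05710), an aconitase, the enzyme between citrate and isocitrate, rose from 33.4 ± 2.85 to 90.8 ± 4.05 CPM (log2 fold change 1.44 ± 0.19), while ACO1 had 0.39 ± 0.20 and did not pass. PPDK (AT4G15530), which makes phosphoenolpyruvate from pyruvate, rose from 4.98 ± 1.54 to 10.8 ± 0.411 CPM (1.13 ± 0.21). The mitochondrial fumarase FUM1 and succinate dehydrogenase subunit SDH1-1, which carry the succinate that ICL releases on to malate, rose with log2 fold changes of 0.70 ± 0.18 and 0.67 ± 0.17. The carrier SFC1, for succinate and fumarate, had 1.85 ± 0.499 and 1.46 ± 0.275 CPM, and ACN1, which activates acetate in the peroxisome, had 11.2 ± 1.16 and 15.8 ± 4.21 CPM, and neither passed. DIC1, a mitochondrial dicarboxylate carrier, fell (-0.64 ± 0.22, edgeR adjusted p = 0.0487). SFC1, ACN1, DIC1, ACO1 and CSY4 were named after their values were seen. FUM1 missed the threshold without wild-type replicate 1 (adjusted p = 0.0596), and SDH1-1 without wild-type replicate 2 (0.0529) or replicate 1 labelled pp7l-1 (0.0543). Without wild-type replicate 1 or 2, 3 genes were called in all and 0 were lower. DIC1 missed it in 10 of the 15 alternative fits, DESeq2 (adjusted p = 0.0632) and library size alone (-0.25, adjusted p = 0.482) among them, and of the 6 fits without 1 library it passed in the one without replicate 1 labelled pp7l-1 alone.

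In the cytosolic part of gluconeogenesis, from phosphoenolpyruvate to sucrose, 10 of 23 tested genes were higher and 0 lower, and the median log2 fold change was 0.47, within a range of -0.28 to 1.20. The shares over all tested genes were 10.6% higher and 11.3% lower. The sucrose phosphate synthases SPS1F (AT5G20280) and SPS4F (AT4G10120) went up, the former from 10.9 ± 1.24 to 25.0 ± 2.93 CPM and the latter from 3.55 ± 0.845 to 6.68 ± 1.55 CPM. Of the same family, SPS2F had 5.97 ± 0.773 and 4.90 ± 0.441 CPM (log2 fold change -0.28 ± 0.20) and did not pass, and SPS3F, at 0.413 ± 0.150 and 0.207 ± 0.0395 CPM, had too few counts to be tested (both were named after their values were seen). The phosphoglycerate mutase iPGAM2 rose by 0.84 ± 0.20 and the UDP-glucose pyrophosphorylase UGP1 by 0.76 ± 0.19 on the log2 scale. Cytosolic fructose-1,6-bisphosphatase (cFBP), an irreversible step towards sugar, was at 51.2 ± 8.92 and 42.9 ± 4.39 CPM and did not pass (edgeR adjusted p = 0.380, named after its value was seen). The count of 10 was 3 without wild-type replicate 3 or replicate 1 labelled pp7l-1 and 5 without wild-type replicate 1. SPS4F missed the threshold without wild-type replicate 2 (adjusted p = 0.0525), wild-type replicate 3 (0.0553) or replicate 3 labelled pp7l-1 (0.0519), and UGP1 without wild-type replicate 3 (0.0581) or replicate 1 labelled pp7l-1 (0.0543). These genes also serve glycolysis and photosynthetic sucrose synthesis.

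Peroxins, the proteins that build peroxisomes and import their enzymes, gave 1 higher gene of 12 tested and 0 lower, and the median log2 fold change was 0.22. A count of 1 in 12 is no more than the share over all tested genes, of which 10.6% were called higher. The higher gene was PEX5 (AT5G56290), the import receptor, which rose from 7.81 ± 0.701 to 11.4 ± 0.747 CPM (0.55 ± 0.18, edgeR adjusted p = 0.0345). The count was 0 with DESeq2 and with any library left out other than replicate 2 labelled pp7l-1.

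**Figure D4:**
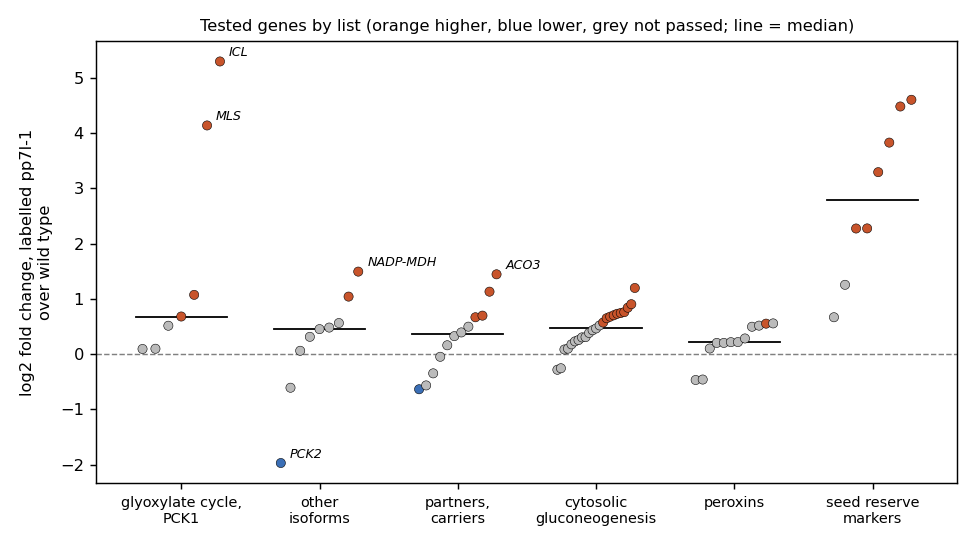
Log2 fold change of every tested gene, libraries labelled pp7l-1 over wild type, by list, with a line at each list's median. ICL at 5.30 and MLS at 4.14 stand above the other tested genes of the pathway lists, whose highest is NADP-MDH at 1.49, and PCK2 at -1.97 is the lowest.

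Seed reserve and late embryo markers moved with the genotype beside ICL and MLS. Of 12 listed, 8 could be tested, 6 were higher and 0 lower, and the median log2 fold change was 2.79. All tested genes gave 10.6% higher and 11.3% lower. The storage protein genes CRC, SESA3 and CRA1 had log2 fold changes of 4.60 ± 0.47, 4.48 ± 0.60 and 3.83 ± 0.38, and the oil body gene OLEO1 one of 3.29 ± 0.45. SESA3 and OLEO1 had 9 and 20 counts in all in the wild type, so their folds rest on few counts. CRB, PER1 and EM6 had 29, 19 and 18 counts there. None of these genes reached the level of the count filter in all 3 wild-type libraries. To be tested they needed libraries labelled pp7l-1, so the numbers of higher and lower calls and the median are in part set by the filter. Of the 8 tested markers, 2 did not pass. For 5 of the 8, every library labelled pp7l-1 lay above the wild type, as for 18.7% of all tested genes. Between 0 and 2 of the 12 genes had no count in a given library. Their summed level was between 6.56 and 10.5 CPM in the wild type, and 134, 105 and 36.6 CPM in replicates 1, 2 and 3 labelled pp7l-1. Replicate 3, lowest in these markers, was also lowest in ICL, MLS, PCK1, CSY3 and CSY2 among the libraries labelled pp7l-1. In PMDH1 it lay between the others, and in PMDH2 it was highest. Replicate 1, highest in the summed markers, was below replicate 2 in ICL, MLS, PCK1 and CSY3. The TMM factor that divides the counts was 1.09, 1.05 and 1.35 in replicates 1, 2 and 3 labelled pp7l-1, against 0.753 to 0.930 in the wild type. It thus differed with the genotype, and was largest in replicate 3 labelled pp7l-1. Without replicate 3 labelled pp7l-1, the log2 fold changes of ICL and MLS were 5.50 and 4.31. The part of these markers in the changes of the 7 genes was not tested.

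By the distance between log2 CPM profiles over the 6 libraries, each centred on its own mean, the tested gene outside the 7 most like ICL was AT2G47780, a rubber elongation factor protein (distance 1.42). It was followed by AT1G75945 (1.65), LCR67 (AT1G75830, 1.92), the cruciferin CRC (1.96) and the noncoding RNA AT4G02795 (2.07). MLS lay at a distance of 1.49 from ICL, with 1 gene outside the 7 nearer. Nearest to MLS were AT1G75945 (0.50), AT2G47780 (0.73) and AT4G02795 (0.79). AT1G75945 and AT4G02795 were at 0.0309 ± 0.0536 and 0.282 ± 0.0891 CPM in the wild type, and LCR67 and AT2G47780 at 0.432 ± 0.145 and 0.941 ± 0.409 CPM. The distances of these genes thus rest on few wild-type counts. PCK1 lay closest to the plastid ATP carrier NTT1 (AT1G80300, 0.19), to CRF11 (AT3G25890, 0.24) and to AT4G15620 (0.25), with log2 fold changes of 1.10 ± 0.18, 0.95 ± 0.21 and 1.17 ± 0.18. With 3 libraries of each genotype such distances largely restate the difference between genotypes in log2 CPM. The prior count of 2 makes that difference smaller than the fitted fold change where counts are few. AT1G75945 lay nearest to MLS although its fitted log2 fold change was 6.20 ± 0.67, against 4.14 ± 0.26 for MLS.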

How the data were processed

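Reads were trimmed, aligned and counted by the authors. The submitters' processing notes name Trimmomatic, FastQC, TopHat2 2.1.1, featureCounts and the build TAIR10. The annotation, the strand setting and the treatment of reads with several matches are not given in the sources used here. Raw counts of reads per gene were deposited, 1 table per library. Symbols, coordinates and exon lengths came from the RefSeq annotation of TAIR10.1, which matched 33056 of 33341 codes. Genes were filtered with filterByExpr (minimum count 10), scaled by TMM and tested with the quasi-likelihood test of edgeR 4.0.16 (R 4.3.3), genotype being the only term, with Benjamini-Hochberg adjustment over 18115 genes and a threshold of 0.05. Errors of fold changes are standard errors, and 95% intervals come from the same fit. Ratios between genes used counts plus 0.5 per kilobase of exon, and profiles log2 CPM with a prior count of 2. Motifs were sought before the annotated gene starts, since no promoter table was used. Proteins and their targeting signals were not analysed here.

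Named were the 7 genes, up to 4 called genes of each list by size of change, and the genes nearest in profile to ICL, MLS and PCK1. The 7 genes and the lists were chosen with earlier results of these data known. Replicates with the same number did not deviate together (correlations 0.100, -0.0280 and 0.0535), so the numbers were not taken as pairs. Alternatives were DESeq2 1.42.0, limma voom (limma 3.58.1), other scalings and filters, a replicate block and leaving out each library. The values of 1 listed gene are not reported here.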

Additional observations from a re-analysis of the deposited data

How the results depend on the processing

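ICL, MLS and PCK1 stayed higher and past the threshold in all 15 alternative fits, with log2 fold changes of 5.12 to 5.70, 3.94 to 4.54 and 1.03 to 1.48. CSY3 lost its call in 3 of the 6 fits that left out 1 library (0.49 to 0.82 over the 6), and PMDH1 gained one under 3 scalings. PMDH2 turned to -0.10 without replicate 3 labelled pp7l-1 and was at 0.33 without replicate 2. Of the 7 genes, 4 passed with DESeq2, with limma voom and with the replicate block, 5 with upper-quartile scaling, library size alone or nuclear genes alone, and 3 to 4 with 1 library left out. With the replicate block, 4153 genes passed in all against 3972 without it, and the numbers are not shown to pair the libraries; it changed no call among the 7 genes. Scaled on library size alone, the median log2 fold change of all tested genes moved to 0.41, 85.5% of calls were higher against 48.6% with TMM, 7 of the other isoforms and 3 peroxins passed. With DESeq2, 0 peroxins passed. Leaving out 1 library gave 3 to 5 calls among the other isoforms, 3 to 6 among cycle partners and carriers, 3 to 10 in cytosolic gluconeogenesis, 0 to 1 among peroxins and 5 to 9 among seed reserve markers, and 2671 to 4365 over all genes. Differences of the log2 ratios ranged from -1.23 to -1.06 for MLS to ICL, from 0.44 to 0.70 for CSY3 to CSY2, from -0.65 to -0.10 for PMDH2 to PMDH1 and from -4.35 to -4.04 for PCK1 to ICL, and with 3 libraries against 3 or fewer their exact p says nothing about stability. The causes of these shifts were not tested. In the main fit CSY1, CSY5, DIC3, SPS3F, SPP3a, SESA1, SESA2, SESA4 and EM1 had too few counts to pass the filter, and low depth and low expression cannot be told apart there. Some alternative fits did test them. SESA1 passed the threshold in 5 of 5 such fits, SESA2 in 4 of 5 and SESA4 in 1 of 1, and the other genes named passed in 0. With 1 library left out, 8 to 10 seed reserve markers were tested.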
